A study of Mus musculus with 11 samples.

Results

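The genes described here carry fat from the blood into the fat cell. They are 10 of the 15453 genes with a value in epididymal white adipose tissue (eWAT), and they were listed by gene symbol for their known role, with the genotype differences of these mice already known. The list holds the lipases Lpl and Lipf, the Lpl partners Gpihbp1, Lmf1 and Angptl4, the uptake genes Cd36, Slc27a1 and Acsl1, and the binding proteins Fabp4 and Fabp5. The study took eWAT from male C57BL/6 mice (C57BL/6J in the study's methods) at 16 weeks of age, after a high fat diet that began at 8 weeks, and counted transcripts by SAGE (serial analysis of gene expression), where one short 3' tag stands for one transcript. Of the 11 mice, 6 were wildtype (WT) and 5 were Mest+/- animals that inherited the inactivated Mest allele from the father (pKO), each mouse giving 1 library. Mest, mesoderm specific transcript, is an imprinted gene read from the paternal allele, and the allele was inactivated in the whole animal, not in fat cells alone. Values are normalized tags, meaning tags divided by the size factor of the library, and differences are pKO minus WT on the log2(value + 1) scale. Since the tissue was measured in bulk, fewer cells of a type and less RNA per cell cannot be told apart.

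Fat reaches adipose tissue as triglyceride inside lipoprotein particles. Lipoprotein lipase (Lpl) is folded with the help of Lmf1 in the endoplasmic reticulum, is carried across the capillary wall by Gpihbp1, and frees fatty acids there until Angptl4 inactivates it. The fatty acids enter through Cd36 and the transporter Slc27a1 (FATP1), are made into acyl-CoA by Acsl1, and are held in the cytosol by Fabp4 and Fabp5. Lipf encodes gastric lipase, best known as an enzyme of the stomach that digests dietary fat.

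A candidate tag of the annotated transcript is shown for 6 members, since a gene was measured through such a stretch of its RNA. The Fabp4 and Fabp5 transcripts are also related and could have shared reads. The sequences were read from the GENCODE M21 transcripts (GRCm38, the assembly also called mm10, which the submitters' processing notes name) and run 5' to 3' on the transcript for 27 bases, with the NlaIII site in capitals.
Lpl: CATGattgtctgtctcactgagccaac
Lipf: CATGttattgtaattttggctttagaa
Gpihbp1: CATGtggtgtactgatacctgccagcc
Fabp4: CATGaacttaccaagtctgcatactaa
Fabp5: CATGccccgtcatttaagcttgcctta
Slc27a1: CATGtcagctgggagacacgcgcagtc
None of the 10 tags was found in a transcript of another annotated gene, exactly or with up to 2 mismatches, which also holds for Fabp4 against Fabp5. The Lpl tag lies at chr8:68906798-68906824 in exon 10, the Lipf tag at chr19:33976765-33976791 in exon 10, the Fabp5 tag at chr3:10016491-10016517 in exon 4 and the Slc27a1 tag at chr8:71586471-71586497 in exon 14, all on the plus strand and in the 3' untranslated region. The Fabp4 tag, at chr3:10204172-10204198 in exon 4, is on the minus strand and also untranslated. The Gpihbp1 tag, at chr15:75597755-75597781 in exon 4 on the plus strand, is the one tag of the 10 that falls in coding sequence. Lpl, Slc27a1 and Acsl1 lie on chromosome 8, Lmf1 and Angptl4 on chromosome 17, and Fabp4 and Fabp5 are near each other on chromosome 3, at 10204088 to 10208576 and 10012548 to 10016607. Annotated isoforms can end elsewhere and give other tags, with 3 distinct tags over the coding transcripts of Gpihbp1, Cd36 and Slc27a1, 5 for Acsl1 and 2 for Lmf1, against 1 for each of the other members. For Lpl, Fabp4 and Slc27a1 the last NlaIII site starts 7, 12 and 14 bases before the transcript end, too close to leave 27 bases. A site upstream is given for them instead. SAGE takes its tag at the last site, so the tags printed for Lpl, Fabp4 and Slc27a1 may not be those sequenced. Tags from these last sites were not compared with other genes, so the check of Fabp4 against Fabp5 covers the upstream Fabp4 tag. Which tags were added up for a gene is not given in the sources used here.

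Recovered totals were 9659740 to 14825727 tags for WT libraries and 11320342 to 14626803 for pKO libraries, and genotype made no difference beyond the spread (exact permutation test, two-sided, p = 0.82). Mest ranged over 20756 to 27897 normalized tags in WT against 793 to 2275 in pKO mice, so the libraries matched their labels. The adipocyte markers Adipoq, Plin1, Cidec, Cfd, Lep, Retn, Pnpla2, Lipe and Slc2a4 were present in each library, with summed levels of 191748 to 271468 in WT against 186584 to 276234 in pKO mice (exact permutation test, p = 0.68). This sum does not show that each marker was unchanged. Over the 9 adipocyte markers the median log2 difference was 0.28, against -0.0025 for all genes. Summed capillary endothelial markers were at 7763 ± 994 in WT (SD, n = 6) against 8020 ± 912 in pKO mice (SD, n = 5), and summed macrophage markers at 12041 ± 1380 and 10129 ± 1493 (exact permutation tests, p = 0.66 and p = 0.054, not adjusted). The endothelial sum joins markers that went different ways, with the mean of Kdr higher and that of Pecam1 lower in pKO mice. The sums of stromal markers, at 49268 ± 3021 and 57239 ± 2015, and of mesothelial markers, at 1314 ± 155 and 2029 ± 471, were higher in pKO mice (exact permutation tests, p = 0.0043 and p = 0.011, not adjusted for the number of sums). The stromal sum leaned on Dcn, at 21572 ± 2491 in WT against 27841 ± 3653 in pKO mice. Pi16 of the same list went the other way, at 554 ± 235 and 370 ± 172. The median log2 difference of the 7 stromal markers was 0.09. Without pKO replicate 2, limma called 65 genes lower and 26 higher over all genes in place of 4 and 1, the largest move that leaving out a mouse gave. The part of these cell types in the values of the members was not tested, except where a ratio is given below.

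The members differed widely in level, from rank 2 to rank 9037 of the 15453 genes. Fabp4, the main fatty acid binding protein of adipocytes, ranked 2 among the 15453 genes and alone took 4.11% to 7.23% of the tags of a mouse. Together the 10 genes took 6.36% ± 0.976 of all tags in WT (SD, n = 6) against 6.60% ± 1.12 in pKO mice (SD, n = 5), which differed by less than the SD (exact permutation test, p = 0.68). Below Fabp4 came Lpl at rank 19, Cd36 at 26, Angptl4 at 48 and Acsl1 at 249, all abundant, then Gpihbp1 at 1467, Fabp5 at 2156 and Slc27a1 at 3260. Lipf, at rank 6683, and Lmf1, at 9037, were the least abundant members. One tag stands for one transcript whatever its length, so these ranks compare levels of transcripts. The order held inside single mice. Each step from Fabp4 down to Fabp5, through Lpl, Cd36, Angptl4, Acsl1 and Gpihbp1, went the same way in 11 of 11 mice, as did the step from Slc27a1 to Lipf. Fabp5 was above Slc27a1 in 10 of 11 mice and Lipf above Lmf1 in 9 of 11. Over all mice, the ranges of neighbours in this order were apart for Fabp4 and Lpl, Angptl4 and Acsl1, and Acsl1 and Gpihbp1, and overlapped for the other 6 pairs. The 13-fold step from Lpl up to Fabp4 was the widest.

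**Figure D1:**
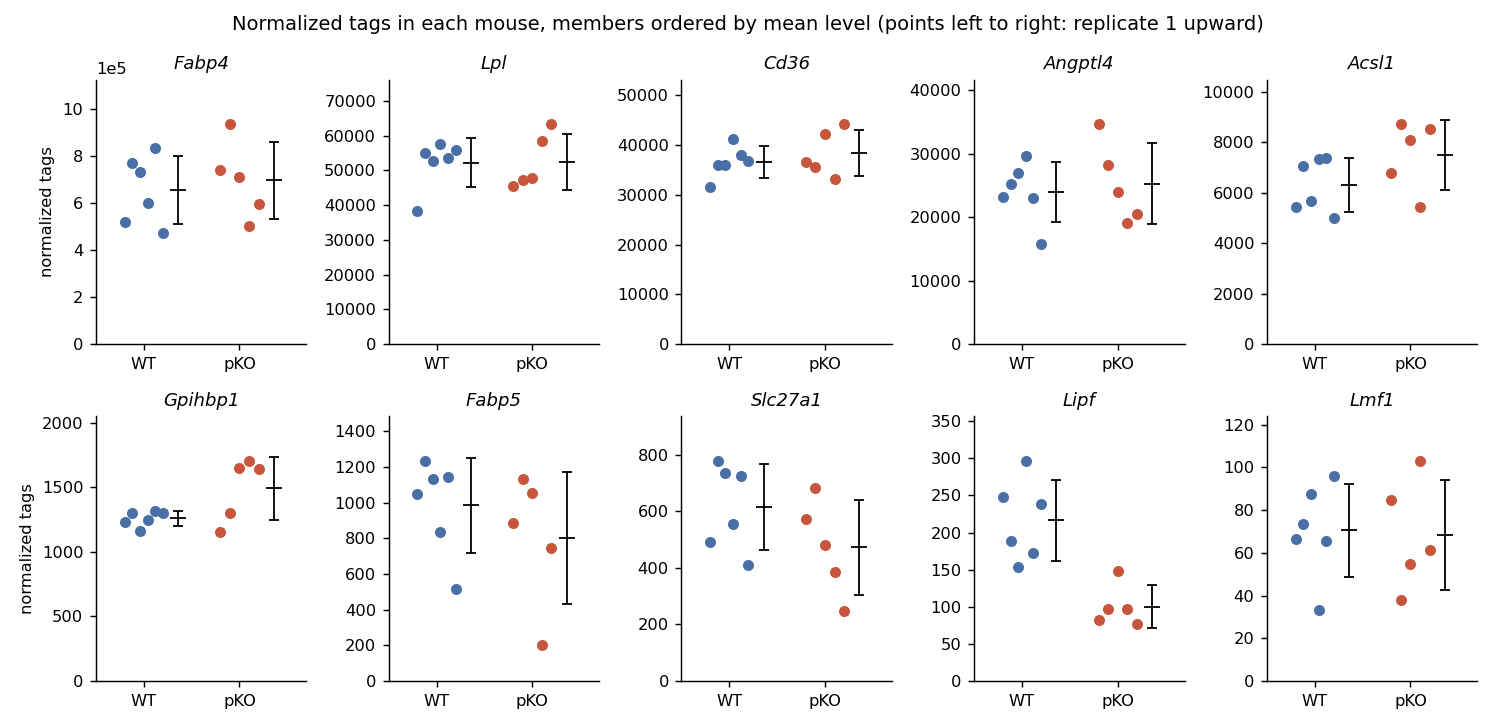
Normalized tags (vertical axis, linear, from 0, with its own scale for each gene) of the 10 members in each of 6 WT (blue) and 5 pKO mice (red), with the mean and SD beside each group. The WT and pKO points of Lipf do not overlap, at 153.0 and above against 149 and below, and those of each other member do.

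The genotype comparison asked which of these genes differed in fat that lacked most Mest transcript. The study reports that these WT mice had a higher ratio of fat to lean mass than these pKO mice. Genotype and adiposity therefore cannot be told apart in this comparison. At the study's threshold, an adjusted p no higher than 0.1 and a mean of 50 or more in either genotype, limma called 0 of the 10 members. Of the 15453 genes it called 0.0324%, with 4 genes lower (0.0259%) and 1 higher (0.00647%) in pKO mice. The counts with edgeR and DESeq2 on the recovered tags were 0 and 1 of the 10 members, where these tools called 0.0324% and 0.72% of the genes they tested. At an unadjusted p no higher than 0.05 and the same minimum mean, 1 member was lower and 0 were higher, where 3.7% and 3.11% of all genes were called. All 10 members reached the minimum mean, as did 9906 of the 15453 genes, which include the 572 lower and 480 higher. These shares of all genes therefore count genes that could not be called. The member that was lower is Lipf, which the study itself had selected on the SAGE values of these mice. The study's own test of these libraries called Lipf lower in pKO mice at its threshold. Since Lipf was chosen by these values, its count and its values here are a description and no separate evidence. Apart from the tags, the study reports lower Lipf in pKO mice by quantitative PCR. That held in the RNA of these mice and in its whole cohort, in epididymal and inguinal fat. The cohort includes these mice, and its epididymal fold was smaller than that of these mice alone. The median log2 difference of the 10 genes was 0.04, against -0.0025 for all genes. For the other 9 members the 95% intervals of the difference included 0, and their width says how large a change could have been missed.

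Lipf was the member with the widest genotype difference. In WT mice its normalized tags ran from 153.0 to 297 with a median of 214, and the pKO mice had 81.6, 97.4, 149, 97.1 and 76.7. All pKO values lay below all WT values, narrowly so for pKO replicate 3, while the other 4 pKO mice lay close together. Ranges were apart for 1.24% of all genes, and in this direction for 0.673%. The means were 216 ± 54.1 (SD, n = 6) and 100 ± 28.5 (SD, n = 5), so pKO fat had 46.3% of the WT level. The log2 difference was -1.11 (standard error 0.21, 95% interval -1.56 to -0.65, limma), with an adjusted p of 0.144. Over the other fits its adjusted p ran from 0.0015 with DESeq2 to 0.57, and it was at 0.085 without pKO replicate 2 and 0.078 without pKO replicate 3. Of 8 markers of stomach chief and pit cells that were looked up, 0 had a value to analyse here, so the level of such cells was not measured. Per 1000 Lpl tags of the same mouse, a measure that library scaling does not touch, Lipf had 4.25 ± 1.36 tags in WT against 1.97 ± 0.712 in pKO mice. On that scale the groups did overlap, with a lowest WT value of 2.91 and a highest pKO value of 3.12.

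**Figure D2:**
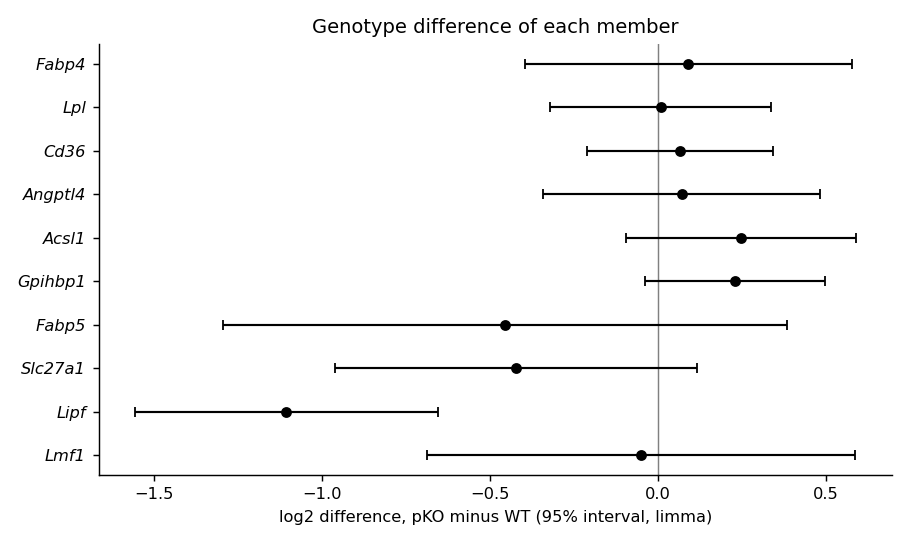
Log2 difference, pKO minus WT, of each member (points) with its 95% interval from limma (bars), ordered by mean level from Fabp4 at the top to Lmf1 at the bottom. The interval of Lipf, -1.56 to -0.65, is the one that leaves out 0.

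The mean levels of the central lipase of fat tissue were close in both genotypes. Lpl ran from 38233 to 57568 normalized tags in WT mice with a median of 54251, and had 45534, 47183, 47672, 58385 and 63372 in pKO mice. Of the pKO mice, 3 lay below 5 of the 6 WT mice and the other 2 above all of them, and WT replicate 1 was lower than any other mouse. Means were 52131 ± 7028 (SD, n = 6) and 52429 ± 7952 (SD, n = 5), a fold of 1.01 whose 95% interval reached from 0.801 to 1.26 (limma, adjusted p = 0.99). The sign of this difference turned under total-count scaling, to -0.03 on the log2 scale, and without WT replicate 1, to -0.08, pKO replicate 4, to -0.03, or pKO replicate 5, to -0.06.

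Of the proteins that fold, carry and inactivate Lpl, Gpihbp1 had the largest difference relative to its standard error. This capillary protein ran from 1161 to 1315 normalized tags in WT mice with a median of 1272, and had 1157, 1303, 1649, 1708 and 1639 in pKO mice. The last 3 pKO mice were above all WT mice and the first was just under the lowest of them, so the groups overlapped. The coefficient of variation was 4.72% in WT, the lowest of any member, and 16.5% in pKO mice, a difference in spread that was not tested. The means were 1259 ± 59.5 (SD, n = 6) and 1491 ± 245 (SD, n = 5), a log2 difference of 0.23 (standard error 0.12, limma). It passed neither threshold (adjusted p = 0.58, limma; exact permutation test of the log2 means, p = 0.082). Without pKO replicate 1 it was 0.32 with an unadjusted p of 0.012 and an adjusted p of 0.39. Of 22 other fits, this was the only fit in which Gpihbp1 passed the unadjusted threshold. Its difference was as low as 0.18, without pKO replicate 4. Per 1000 tags of the endothelial markers, Gpihbp1 had 164 ± 22.3 tags in WT against 187 ± 33.3 in pKO mice (exact permutation test, n = 6 and n = 5, p = 0.24, adjusted over the 7 ratios tested p = 0.33), and per 1000 Lpl tags 24.6 ± 3.89 and 28.5 ± 3.71 (exact permutation test, p = 0.0996, adjusted p = 0.23). The log2 difference of the first ratio, 0.18, ran from 0.12 without WT replicate 1 to 0.30 without pKO replicate 1 (exact permutation tests, p = 0.43 and p = 0.033), and that of the second, 0.22, from 0.15 without pKO replicate 3 to 0.30 without WT replicate 1 (exact permutation tests, p = 0.22 and p = 0.0079).

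Angptl4, the secreted inhibitor that unfolds Lpl, ran from 15792 to 29589 normalized tags in WT mice with a median of 24227, and had 34714, 28266, 23942, 19066 and 20535 in pKO mice. Only pKO replicate 1 was above the WT range, and WT replicate 6 was the lowest mouse. The means, 23954 ± 4696 (SD, n = 6) and 25304 ± 6341 (SD, n = 5), differed by less than either SD (log2 difference 0.07, 95% interval -0.34 to 0.48, limma, adjusted p = 0.94). The ratio of inhibitor to lipase was 467 ± 109 Angptl4 tags per 1000 Lpl tags in WT against 503 ± 187 in pKO mice (exact permutation test, n = 6 and n = 5, p = 0.81). Its sign turned without WT replicate 6, to -0.07 on the log2 scale, and without pKO replicate 1, to -0.11, or pKO replicate 2, to -0.02. Lmf1, the chaperone of the endoplasmic reticulum, was the rarest member, at 33.0 to 96.1 normalized tags in WT mice with a median of 70.2 and at 85.0, 37.8, 54.9, 103 and 61.4 in pKO mice. Its groups covered nearly the same range, with means of 70.5 ± 22.0 (SD, n = 6) and 68.5 ± 25.8 (SD, n = 5) and a 95% interval for the log2 difference of -0.69 to 0.59, the second widest of the 10. Lmf1 had 1.38 ± 0.449 tags per 1000 Lpl tags in WT against 1.31 ± 0.480 in pKO mice (exact permutation test, n = 6 and n = 5, p = 0.89).

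Among the genes of uptake, Cd36 was the steadiest member over the 11 mice, with a highest value 1.40 times the lowest. This scavenger receptor, which takes up long chain fatty acids, ran from 31552 to 41165 normalized tags in WT mice with a median of 36399, and had 36502, 35621, 42290, 33206 and 44234 in pKO mice. pKO replicates 3 and 5 were above the WT range and the other 3 inside it. The means were 36573 ± 3137 (SD, n = 6) and 38371 ± 4676 (SD, n = 5), with a 95% interval for the fold of 0.863 to 1.27 (limma, adjusted p = 0.91). Slc27a1, the transport protein FATP1, ran from 409 to 780 in WT mice with a median of 639, and had 573, 682, 480, 385 and 246 in pKO mice. pKO replicates 4 and 5 were below the WT range, and the other 3 pKO mice were inside it. Its means were 615 ± 152 (SD, n = 6) and 473 ± 168 (SD, n = 5), a log2 difference of -0.42 (standard error 0.25, limma). It passed neither threshold (adjusted p = 0.62, limma; exact permutation test, p = 0.17). Without pKO replicate 2 the difference was -0.57 with an unadjusted p of 0.038, and without pKO replicate 5 it was -0.21. Of 22 other fits, the fit without pKO replicate 2 was the only fit in which Slc27a1 passed the unadjusted threshold. Slc27a1 had 16.9 ± 4.18 tags per 1000 Cd36 tags in WT against 12.7 ± 5.12 in pKO mice (exact permutation test, n = 6 and n = 5, p = 0.17, adjusted over the 7 ratios p = 0.30), and the log2 difference of -0.49 went to -0.22 without pKO replicate 5.

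Acsl1, the main acyl-CoA synthetase of adipocytes, ran from 5012 to 7363 normalized tags in WT mice with a median of 6359, and had 6766, 8730, 8081, 5450 and 8529 in pKO mice. pKO replicates 2, 3 and 5 were above all WT mice and the other 2 pKO mice were inside the WT range. The means were 6312 ± 1056 (SD, n = 6) and 7511 ± 1383 (SD, n = 5), a log2 difference of 0.25 (standard error 0.16, limma). It passed neither threshold (adjusted p = 0.64, limma; exact permutation test, p = 0.15). Without pKO replicate 4 it was 0.36, with an unadjusted p of 0.035 and an adjusted p of 0.46. Of 22 other fits, this was the only fit in which Acsl1 passed the unadjusted threshold. Its difference was as low as 0.18, without WT replicate 6.

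The binding proteins did not differ between the genotypes beyond their spread. Fabp4 ran from 471444 to 835899 normalized tags in WT mice with a median of 667060, and had 741967, 938405, 711649, 503057 and 597574 in pKO mice. The single highest mouse was pKO replicate 2 and the single lowest WT replicate 6. Means were 655817 ± 145987 (SD, n = 6) and 698530 ± 164317 (SD, n = 5), and the 95% interval of the fold reached from 0.760 to 1.49 (limma, adjusted p = 0.93). Fabp5, a binding protein of wider tissue distribution that macrophages also express, ran from 516 to 1236 in WT mice with a median of 1089, and had 888, 1130, 1051, 199 and 744 in pKO mice. One mouse, pKO replicate 4, was far under all others, and without it the log2 difference of -0.46 (standard error 0.39, limma, adjusted p = 0.74) went to -0.0083. The mean level was 984 ± 267 in WT (SD, n = 6) against 802 ± 369 in pKO mice (SD, n = 5). Fabp5 had the widest range of the members, with a highest value 6.22 times the lowest. Fabp5 tags per 1000 Fabp4 tags were 1.50 ± 0.305 in WT against 1.10 ± 0.412 in pKO mice (exact permutation test, n = 6 and n = 5, p = 0.071, adjusted over the 7 ratios p = 0.23). The log2 difference of this ratio was -0.55, and it went to -0.21 without pKO replicate 4 (exact permutation test, p = 0.23). It was -0.63 without WT replicate 6 and -0.68 without pKO replicate 3 (exact permutation tests, each with an unadjusted p = 0.024).

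Some members varied together from mouse to mouse. WT replicate 6 and pKO replicate 4 held the lowest ranks of the 11 mice in Fabp4 (11 and 10, where rank 1 is the highest mouse), in Fabp5 (10 and 11) and in Angptl4 (11 and 10), and were low in Slc27a1 (9 and 10) and Acsl1 (11 and 9). The same pair held the highest ranks in Lmf1 (2 and 1) and were among the higher mice in Lpl (4 and 2). Their summed adipocyte markers were 227725 and 253197, inside the range of the other mice. Over the 36 pairs that can be made of the 9 members other than Lipf, an analysis chosen after their values were seen, 21 correlations were positive. Fabp4 and Fabp5 had Pearson's r = 0.68 over 11 mice on the log2 scale (permutation test, p = 0.0078, adjusted over the 36 pairs p = 0.15) and Spearman's rho = 0.85 (permutation test, p = 0.0014, adjusted p = 0.026). Within WT mice alone r was 0.79 (n = 6, exact permutation test, p = 0.031), and without the 2 mice farthest from the median of Fabp4, the first gene of the pair, it was 0.56. Fabp4 and Slc27a1 had r = 0.68 (permutation test, p = 0.019, adjusted p = 0.15) and rho = 0.79 (permutation test, p = 0.0051, adjusted p = 0.047), with r = 0.97 within WT mice (n = 6, exact permutation test, p = 0.0056) and 0.61 without the 2 farthest mice. Lmf1 and Acsl1 went opposite ways, with r = -0.71 (permutation test, p = 0.013, adjusted p = 0.15) and rho = -0.79 (permutation test, p = 0.0053, adjusted p = 0.047), -0.66 within WT mice (n = 6, exact permutation test, p = 0.11) and -0.77 without the 2 farthest mice. Fabp5 and Slc27a1 had the highest rank correlation, rho = 0.86 (permutation test, p = 0.0011, adjusted p = 0.026), but r = 0.57 (permutation test, p = 0.071, adjusted p = 0.27), with r = 0.85 within WT mice (n = 6, exact permutation test, p = 0.019) and 0.81 without the 2 farthest mice. No pair passed an adjusted p of 0.05 by Pearson's r, and these 4 were the pairs that passed it by rank. Within the pKO mice (n = 5, not tested) r of the 4 pairs, in the order given, was 0.84, 0.76, -0.90 and 0.39. The p-values within WT mice are not adjusted over the 36 pairs. All members of a library share its size factor, and Fabp4 is itself several percent of each library.

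**Figure D3:**
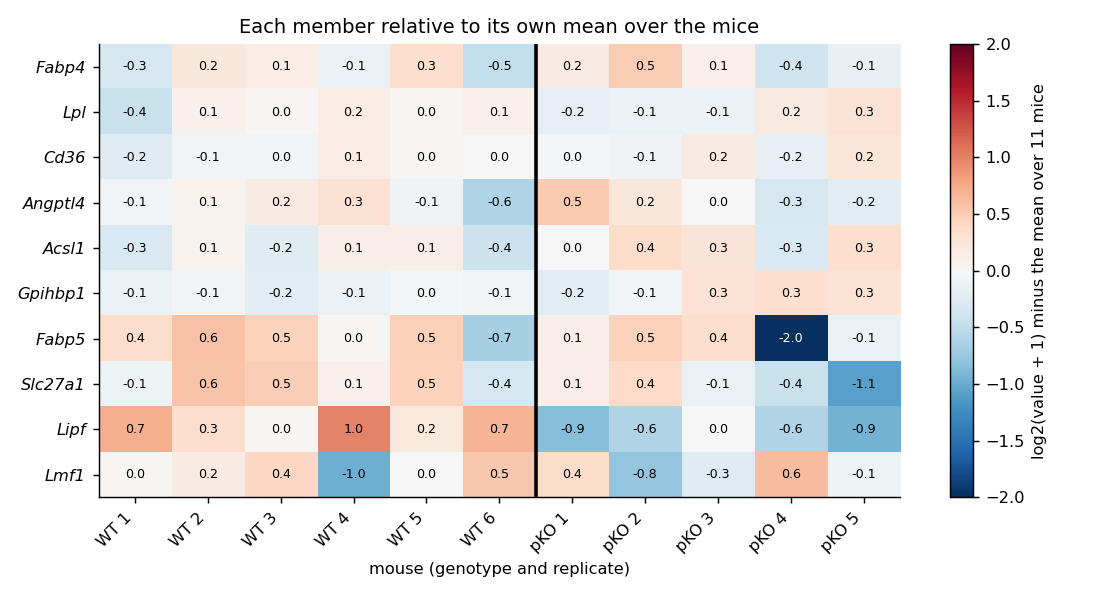
Log2(value + 1) of each member (rows) in each mouse (columns) minus the mean of that gene over the 11 mice, with red for above and blue for below the mean and WT mice left of the black line. WT replicate 6 and pKO replicate 4 are blue in Fabp4, Fabp5, Slc27a1, Angptl4 and Acsl1, and red in Lmf1.

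**Figure D4:**
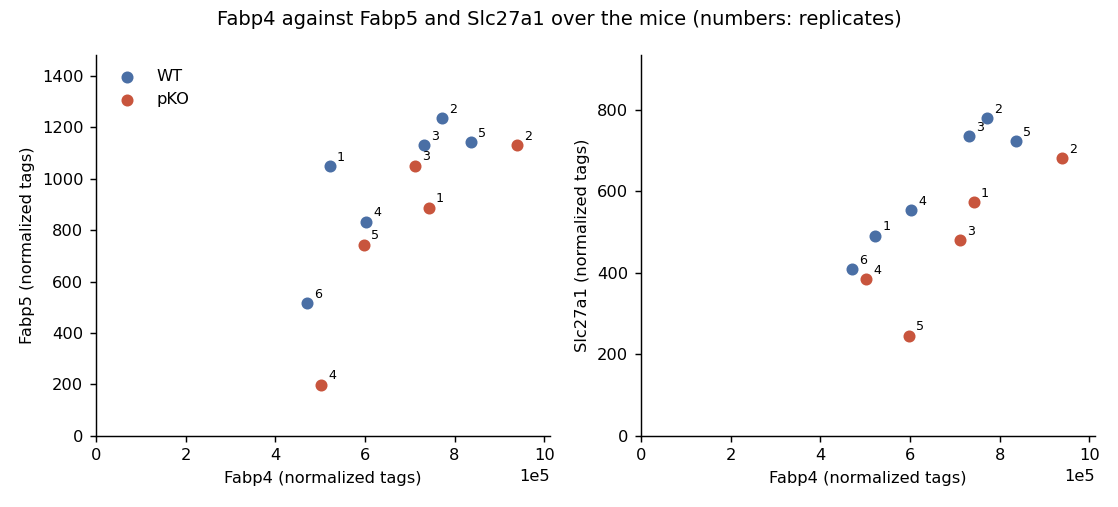
Normalized tags of Fabp5 (left) and Slc27a1 (right) against those of Fabp4 in each mouse, WT in blue and pKO in red, with replicate numbers beside the points and linear axes from 0. Within the 6 WT mice the points rise together, with r on the log2 scale of 0.79 and 0.97.

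The profile over the mice nearest to that of Lipf, by root mean square difference of centred log2 values among 9905 genes with a mean of 50 or more, was that of the choline transporter gene Slc5a7, at 0.25. The Lipf profile itself deviated from its own mean by 0.64. Next came Lbp, the lipopolysaccharide binding protein, at 0.30 and Tfpi2, a protease inhibitor, at 0.32. Genes were centred over the mice of both genotypes, so the genotype difference of Lipf is part of its profile. Genes with a similar genotype difference rank near it for that reason, and this ranking is no separate evidence. Slc5a7 had 1885 ± 331 in WT (SD, n = 6) against 852 ± 165 in pKO mice (SD, n = 5), Lbp 12404 ± 1776 and 6624 ± 1787, and Tfpi2 428 ± 70.9 and 261 ± 74.3. The genes nearest to Lpl, whose own deviation was 0.20, were Grwd1 at 0.096, Wdyhv1 at 0.11 and 4930444A02Rik at 0.11, each with genotype means within 1 SD of each other.

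Around the 10 members stand other genes of the same pathway, in 8 lists of 111 genes, of which 89 had a value and 60 a mean of at least 50. At the adjusted threshold 0 of them were called in either direction by limma. At an unadjusted p no higher than 0.05 and the minimum mean, 4 were lower and 3 higher in pKO mice, or 7.87% of the 89 where 6.81% of all genes were called, and the median log2 difference was 0.04. In the list of other extracellular lipases, 1 of 7 genes with a value reached the minimum mean. It was Lipa, the acid lipase of lysosomes, which is not an extracellular enzyme although it was placed in this list. Lipa was at 1904 ± 264 in WT (SD, n = 6) against 1272 ± 526 in pKO mice (SD, n = 5) (log2 difference -0.66, adjusted p = 0.39, limma). Of the 19 regulators and partners of Lpl, 2 of the heparan sulfate proteoglycan cores to which the enzyme can bind were in the lower group. Sdc1, syndecan 1, was at 151 ± 19.7 (SD, n = 6) and 106 ± 25.9 (SD, n = 5), and Hspg2, perlecan, at 1533 ± 286 and 1122 ± 220, with log2 differences of -0.53 and -0.45 (adjusted p = 0.38 and adjusted p = 0.42, limma). Sort1, the sorting receptor and the most abundant of them, was at 3464 ± 244 and 4054 ± 1021 and did not pass. None of the 7 lipoprotein receptors passed either threshold, and Lrp1 was at 4396 ± 449 and 4383 ± 639.

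Downstream of uptake, Acot2, a mitochondrial acyl-CoA thioesterase, had the smallest p of these genes. It was at 308 ± 41.3 in WT (SD, n = 6) against 477 ± 49.1 in pKO mice (SD, n = 5), with the highest WT mouse at 376 and the lowest pKO mouse at 413. Ranges were apart in this direction for 0.569% of all genes. Its log2 difference was 0.63 (standard error 0.13, unadjusted p = 0.00026, adjusted p = 0.19, limma). Of the same list of 13 binding proteins and thioesterases, Acbd3 was at 209 ± 32.1 and 337 ± 150 (log2 difference 0.59, adjusted p = 0.47), Acot13 was lower (log2 difference -0.52, adjusted p = 0.48), and the abundant acyl-CoA binding protein Dbi, at 82909 ± 8371 and 97613 ± 12004, did not pass. No gene among 11 other transporters and uptake partners, 10 other acyl-CoA synthetases or 9 other members of the Fabp family passed with the minimum mean. Cav1, the caveolin of adipocyte membranes, was at 82245 ± 47987 and 82837 ± 38005, and Acss2, the cytosolic acetyl-CoA synthetase, at 5830 ± 1110 and 6154 ± 1073. Of the Fabp family list 2 of 9 genes reached the minimum mean. Of the 13 transcription factors known to act on these genes, Cebpa, an adipocyte factor, was higher at the unadjusted threshold, with 23100 ± 2256 in WT (SD, n = 6) against 29530 ± 3638 in pKO mice (SD, n = 5) (log2 difference 0.35, adjusted p = 0.43, limma). Pparg, the main regulator of fat cell formation, had means of 8860 and 9813 and did not pass (adjusted p = 0.83). Cell type markers were also called at the unadjusted threshold, where 3.11% of all genes were higher and 3.7% lower, counting genes under the minimum mean. Higher were 2 of the 9 adipocyte markers, Pnpla2 and Slc2a4, and 3 of 6 mesothelial markers, Msln, Upk1b and Krt19. So were Kdr of 9 endothelial markers, Dcn of 7 stromal markers and Alb of 3 liver markers. Pecam1 of the endothelial list went the other way without being called. It was at 1342 ± 275 in WT (SD, n = 6) against 1033 ± 246 in pKO mice (SD, n = 5). Its log2 difference was -0.39, against 0.44 for Kdr, and the median of the endothelial list was 0.03. Lower were 3 of 9 macrophage markers with values, Itgam, Itgax and C1qb.

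**Figure D5:**
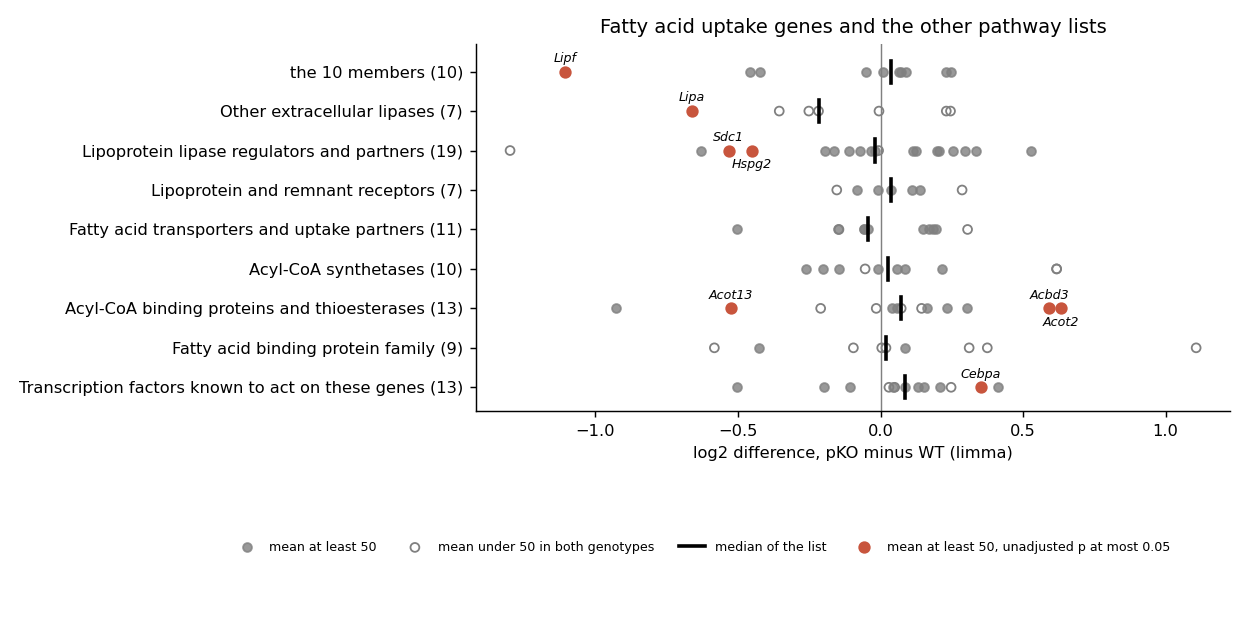
Log2 difference, pKO minus WT (limma), of the 10 members and of the genes of 8 other pathway lists, with the number of genes with a value in parentheses. Grey points have a mean of at least 50, open circles a lower one, red points an unadjusted p of at most 0.05, and black bars mark list medians. Red points are 1 of 10 members and 7 of the other 89 genes.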

How the data were processed

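The authors made SAGE libraries of eWAT from 6 WT and 5 pKO mice (NlaIII and EcoP15I, SOLiD sequencing), mapped the tags with modified SOLiD SAGE software and deposited 1 value per gene and mouse. In this deposited signal the tag count of a gene had been divided by one size factor per library, since 100% of the values were whole multiples of the value of 1 tag (0.836 to 1.19) within 0.01, which gave back the counts. The submitters' processing notes name mm10 and edgeR 3.2.3. Annotation, tag length and gene filter are not given in the sources used here. No 2 libraries agreed within counting noise (lowest chi-square per degree of freedom 17.7).

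log2(value + 1) was fitted for all 15453 genes with limma 3.58.1 (trend, genotype only, R 4.3.3), with Benjamini-Hochberg adjustment over all genes. Calls needed an adjusted p up to 0.1, or an unadjusted p up to 0.05, and a mean of 50 or more in WT or pKO mice. Single values and within-mouse ratios were compared by two-sided exact permutation over the 462 splits of the mice, for which the smallest p is 0.0022. P-values measure the spread between these mice. The pseudocount understates changes of genes with few tags. Scripts were tested on simulated data. Alternatives were total-count and TMM scaling, pseudocounts of 0.5 and 10, a minimum of 10 tags in every library, limma without trend or with robust estimation, edgeR 4.0.16, DESeq2 1.42.0 and voom on the recovered tags, a replicate block, no minimum mean, and each mouse left out. On the recovered tags edgeR called 5 genes and DESeq2 111.

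Named genes were all 10 members, the 2 genes of smallest p and the most abundant gene of each list, those called, and the 3 profiles nearest to Lipf and to Lpl; of these, Pla1a, Lsr, Lrp8, Zdhhc4, Lypla1, Acsm3, Acsl4, Pmp2, Fabp9, Rbp7 and Ppara did not pass with the minimum mean and are not described. Members and lists were chosen with earlier results of these data known. Summed markers of lymphocytes (164 in WT, 184 in pKO), muscle (59.7, 77.7), brown fat (25.3, 31.6) and epididymis (20.6, 17.8) were low. Summed liver markers, nearly all Alb, were at 319 in WT against 955 in pKO mice (exact permutation test, p = 0.0087).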

Additional observations from a re-analysis of the deposited data

Results flagged for a closer look

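A single mouse stood apart from the rest of its group in 2 of the 20 sets of values (10 members in 2 genotypes), where chance alone flags about 1 in 20, or 1.0 here. WT replicate 1 had 38233 normalized tags of Lpl, while the other 5 WT mice lay between 52634 and 57568. pKO replicate 3 had 149 normalized tags of Lipf, while the other 4 pKO mice lay between 76.7 and 97.4.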

How the results depend on the processing

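Over 22 other fits, Acsl1, Cd36, Gpihbp1, Fabp5, Slc27a1 and Lipf kept the sign of their difference, though Cd36 reached 0.012 and Fabp5 -0.0083. Lipf stayed between -1.26 and -1.01 on the log2 scale and passed an adjusted p of 0.1 in 3 of them. With DESeq2 the members counted as lower at that threshold went from 0 to 1, the other pathway genes counted as higher from 0 to 1, and all genes from 4 to 60 lower and from 1 to 51 higher. A minimum of 10 tags gave 9 and 2. Without single mice the count of all genes ran from 2 to 65 lower and from 1 to 26 higher, both highest without pKO replicate 2. The members called ran from 0 to 1 lower (adjusted), from 1 to 2 lower and from 0 to 1 higher (unadjusted). The other pathway genes ran from 0 to 1 lower and 0 to 2 higher (adjusted), and from 3 to 7 lower and 2 to 5 higher (unadjusted), all highest without pKO replicate 2. Of them, 5 were higher with DESeq2 and 5 with no minimum mean, against 3. Total-count scaling moved the unadjusted split of all genes from 572 lower and 480 higher to 737 and 330, and Lpl to -0.027.

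Log2 differences near 0 changed sign without single mice, with ranges of -0.079 to 0.056 for Lpl, -0.25 to 0.14 for Lmf1, -0.024 to 0.20 for Fabp4, -0.052 to 0.16 for Angptl4, -0.11 to 0.20 for the ratio of Angptl4 to Lpl and -0.29 to 0.095 for Lmf1 to Lpl. The cause was not tested.

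Mice with the same replicate number did not deviate together (correlations from -0.09 to 0.14), so the numbers were not taken as pairs. A fit blocked on the number, for which WT replicate 6 has no partner, called 1 gene lower and 0 higher at the adjusted threshold and 1 other pathway gene higher at the unadjusted one, and gave 0.051 for Lmf1 and -0.044 for Angptl4. Precision is limited by 5 and 6 mice and, for Lmf1 and Lipf, by few tags.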
